A study of Homo sapiens with 30 samples.

Results

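The MCM helicase and origin licensing group comprised 10 genes: the helicase subunits MCM2, MCM3, MCM4, MCM5, MCM6 and MCM7, the loaders CDC6 and CDT1, the CDT1 inhibitor GMNN, and MCM10, which acts when the helicase is switched on. They were taken by symbol from a table of 37843 genes in LNCaP cells, and all 10 were found and passed the filter on low counts. LNCaP is a prostate cancer cell line with luminal features, derived from a lymph node metastasis, that carries an androgen receptor and grows in response to androgens. The cells were kept in medium with charcoal-stripped serum, which is low in steroids, and were then given R1881, a synthetic androgen, for 24 h before polyadenylated RNA was sequenced. The groups were vehicle and R1881 at 0.03, 0.06, 0.1 and 10 nM, with 3 libraries each, numbered 2, 3 and 4, all from the one cell line and all in stripped serum. The study asked how cells respond differently to low and high androgen doses. The series also holds 15 samples of VCaP cells, another prostate cancer line, which were not analysed here.

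Licensing is the step by which a cell marks where its DNA may be copied. In late mitosis and the G1 phase the origin recognition complex sits on DNA and, with CDC6 and CDT1, loads the ring of MCM2 to MCM7 subunits onto it; in S phase the loaded rings are activated with the help of CDC45, the GINS complex and MCM10 and unwind the DNA. Geminin, the product of GMNN, binds CDT1 after S phase has begun and so keeps origins from being licensed again within one cycle. Many of these genes are transcribed at the transition from G1 to S phase under E2F factors, so their mRNA is usually higher in cycling than in resting cells.

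Each library held 30666460 to 61199483 counts, and values are given as CPM, counts per 1000000 counts of the library, scaled by trimmed mean of M-values (TMM) factors. The androgen-induced gene KLK3, which encodes prostate-specific antigen, averaged 103, 775, 1500, 2090 and 3850 CPM from vehicle up to 10 nM. Markers of luminal prostate epithelium summed to 3050 to 8390 CPM per library, whereas basal markers summed to 0.0231 to 0.915 CPM and leukocyte markers to 0 to 0.0757 CPM. The fibroblast list summed to 16 to 37.2 CPM, carried by COL1A1 with DCN near 0, and the endothelial list to 5.16 to 26.4 CPM, carried by VWF with PECAM1 and CDH5 near 0. Some of these single genes moved with dose. VWF had 5.16 to 7.81 CPM at 10 nM against 14.7 to 20.9 CPM at 0.1 nM (log2 change -1.50, called), and COL1A1 16.0 to 19.6 CPM at 10 nM against 25.8 to 37.2 CPM with vehicle (-0.85, called). KRT14 was called higher than vehicle at every dose, at 0.165 to 0.915 CPM against 0 to 0.0444 CPM, with TP63 near 0 throughout. Their part in the members' changes was not tested. The 5 libraries numbered 3 stood apart. In them 9.31% to 10.7% of counts fell on mitochondrial genes, against 6.14% to 7.69% elsewhere, and the library numbered 3 was the lowest of its group for 44 of the 50 pairs of a member and a dose. The part of this difference in the results was not tested, but the calls of members and lists and the shares of the rise kept were also computed without those libraries.

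Because the 10 genes moved together, the DNA around the starts of 4 of them is shown. MCM2 had the rise least kept at the highest dose, and CDC6 the largest rise. Among the windows used, MCM6 had the most E2F matches, and MCM10 held none of the E2F strings looked for. The sequences are RefSeq promoter windows on GRCh38.p14, from 250 bases before to 50 bases after an annotated start, written 5′ to 3′ along the gene's own strand. Capitals mark matches to any of 4 E2F letter strings (TTTCCCGC, TTTCGCGC, TTTGCCGC and TTTGGCGC) and to the NF-Y string CCAAT, searched on both strands.
MCM2: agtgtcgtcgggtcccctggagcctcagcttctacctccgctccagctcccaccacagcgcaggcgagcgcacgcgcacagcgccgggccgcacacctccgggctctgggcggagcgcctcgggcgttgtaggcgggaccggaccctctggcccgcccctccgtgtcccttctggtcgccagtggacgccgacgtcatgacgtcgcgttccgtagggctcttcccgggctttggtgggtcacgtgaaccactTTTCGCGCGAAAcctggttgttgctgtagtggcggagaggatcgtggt
MCM6: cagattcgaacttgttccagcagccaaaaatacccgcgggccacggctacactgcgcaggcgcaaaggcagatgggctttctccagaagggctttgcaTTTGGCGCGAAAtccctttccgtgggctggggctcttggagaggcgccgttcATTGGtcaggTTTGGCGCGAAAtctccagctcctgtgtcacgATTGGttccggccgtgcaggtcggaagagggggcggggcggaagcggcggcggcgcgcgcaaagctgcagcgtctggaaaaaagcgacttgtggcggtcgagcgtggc
CDC6: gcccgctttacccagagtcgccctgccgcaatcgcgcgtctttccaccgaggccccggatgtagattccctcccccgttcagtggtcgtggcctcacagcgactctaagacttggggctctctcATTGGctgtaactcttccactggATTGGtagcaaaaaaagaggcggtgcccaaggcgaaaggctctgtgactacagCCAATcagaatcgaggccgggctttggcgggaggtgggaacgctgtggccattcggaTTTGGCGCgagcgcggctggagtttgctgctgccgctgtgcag
MCM10: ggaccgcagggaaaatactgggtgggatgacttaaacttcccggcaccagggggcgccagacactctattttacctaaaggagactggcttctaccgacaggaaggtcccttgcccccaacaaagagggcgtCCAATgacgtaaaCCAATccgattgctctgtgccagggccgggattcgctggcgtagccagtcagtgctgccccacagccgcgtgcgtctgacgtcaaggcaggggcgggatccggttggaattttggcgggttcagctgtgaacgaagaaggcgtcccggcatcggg
These windows lie at chr3:127598161-127598460 on the plus strand for MCM2, chr2:135876394-135876693 on the minus strand for MCM6, chr17:40287629-40287928 on the plus strand for CDC6 and chr10:13161308-13161607 on the plus strand for MCM10. In MCM2 the string TTTCGCGC is read on both strands from overlapping bases, at positions 3 and 7 from the window's annotated start. In MCM6, TTTGGCGC on the gene's strand overlaps TTTCGCGC on the other at each of 2 places, beginning 152 and 90 bases before the start. CDC6 holds 1 E2F match, just past its window's annotated start, and 3 CCAAT boxes before that start. These positions are counted from the RefSeq start. The GENCODE gene starts given below differ from it, and for MCM2 and CDC6 lie inside the window before it. MCM10 holds 2 CCAAT boxes and none of the 4 E2F strings. Only these exact strings were searched, so a missing match does not show that a window lacks an E2F site. The run TTTGGCGG, which differs from TTTGGCGC in its last letter, lies unmarked in the windows of MCM10 and CDC6.

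Windows from 8 of the 10 members were used, 11 windows in all. Any window on chromosome 8, where MCM4 lies, was left out, and MCM5 had no window. At least 1 E2F string was present in 7 of the 11 windows, 1 in each of 7 genes, against 3.31% of all 35116 promoter windows. CCAAT was present in 8 of the 11 windows, from 6 genes, against 34.6% of all windows. The androgen response element AGAACA, 3 bases of any kind and TGTTCT, the inverted repeat bound by the androgen receptor, was in none of the 8 and in 0.00285% of all windows. That is 1 of the 35116 windows, so the absence of this exact string from 8 genes carries no information on the androgen receptor. A match is a run of letters and not a site shown to be bound, and 7 of the 8 genes had a window that holds a GENCODE transcript start, CDT1 being the exception.

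All 10 genes rose at every low dose against vehicle, and all 10 were lower at 10 nM than at 0.1 nM. The mean of each was highest at 0.1 nM, although none was called different between 0.06 and 0.1 nM. Against vehicle, 10 of 10 were higher at 0.03 nM (median log2 change 0.575), 10 of 10 at 0.06 nM (median 0.98) and 10 of 10 at 0.1 nM (median 1.10), by edgeR's quasi-likelihood test at a Benjamini-Hochberg adjusted p under 0.05 over the 18403 genes tested. Of all genes tested, 5.47% were called higher at 0.03 nM, 16.9% at 0.06 nM and 21.5% at 0.1 nM, with medians of 0.00232, -0.0142 and -0.0256. The lowest library of each low dose lay above the highest vehicle library for every member, which held for 13.1%, 21.9% and 25.2% of all genes at the 3 doses. These 3 comparisons share their vehicle libraries, and the fit ignores the replicate number. Blocked on that number, all 10 were still called higher at each low dose, where 9.93%, 20.7% and 25.1% of all genes were. The labels do not say whether the libraries of a group came from separate cultures, so p-values measure the spread between these samples, and in bulk RNA a smaller number of cells expressing a gene cannot be told apart from less RNA per cell.

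At 10 nM the members' mean CPM stood between those of vehicle and 0.1 nM with TMM scaling; with library totals MCM2, MCM3 and CDT1 turned below vehicle, without a call (log2 changes -0.15, -0.13 and -0.05). Against 0.1 nM, 10 of 10 were lower, where 19.5% of all genes were called lower, with a median log2 change of -0.855 for the members and -0.0126 for all genes. Against 0.06 nM, 9 of 10 were lower, where 22.6% of all genes were. Against vehicle, 7 of 10 were still higher, where 29.3% of all genes were; MCM2, MCM3 and CDT1 were not called. Scaled by library totals without TMM factors, which shifts the median of all genes by -0.21 in that comparison, 3 members were called higher at 10 nM than with vehicle (MCM5, CDC6 and GMNN) and all 10 were still lower at 10 nM than at 0.1 nM. With that scaling 16.7% of all genes were called higher and 43.4% lower at 10 nM than with vehicle, against 29.3% and 28.3% with TMM. Without vehicle replicate 3, 4 members were called (MCM5, MCM6, CDC6 and GMNN).

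**Figure D1:**
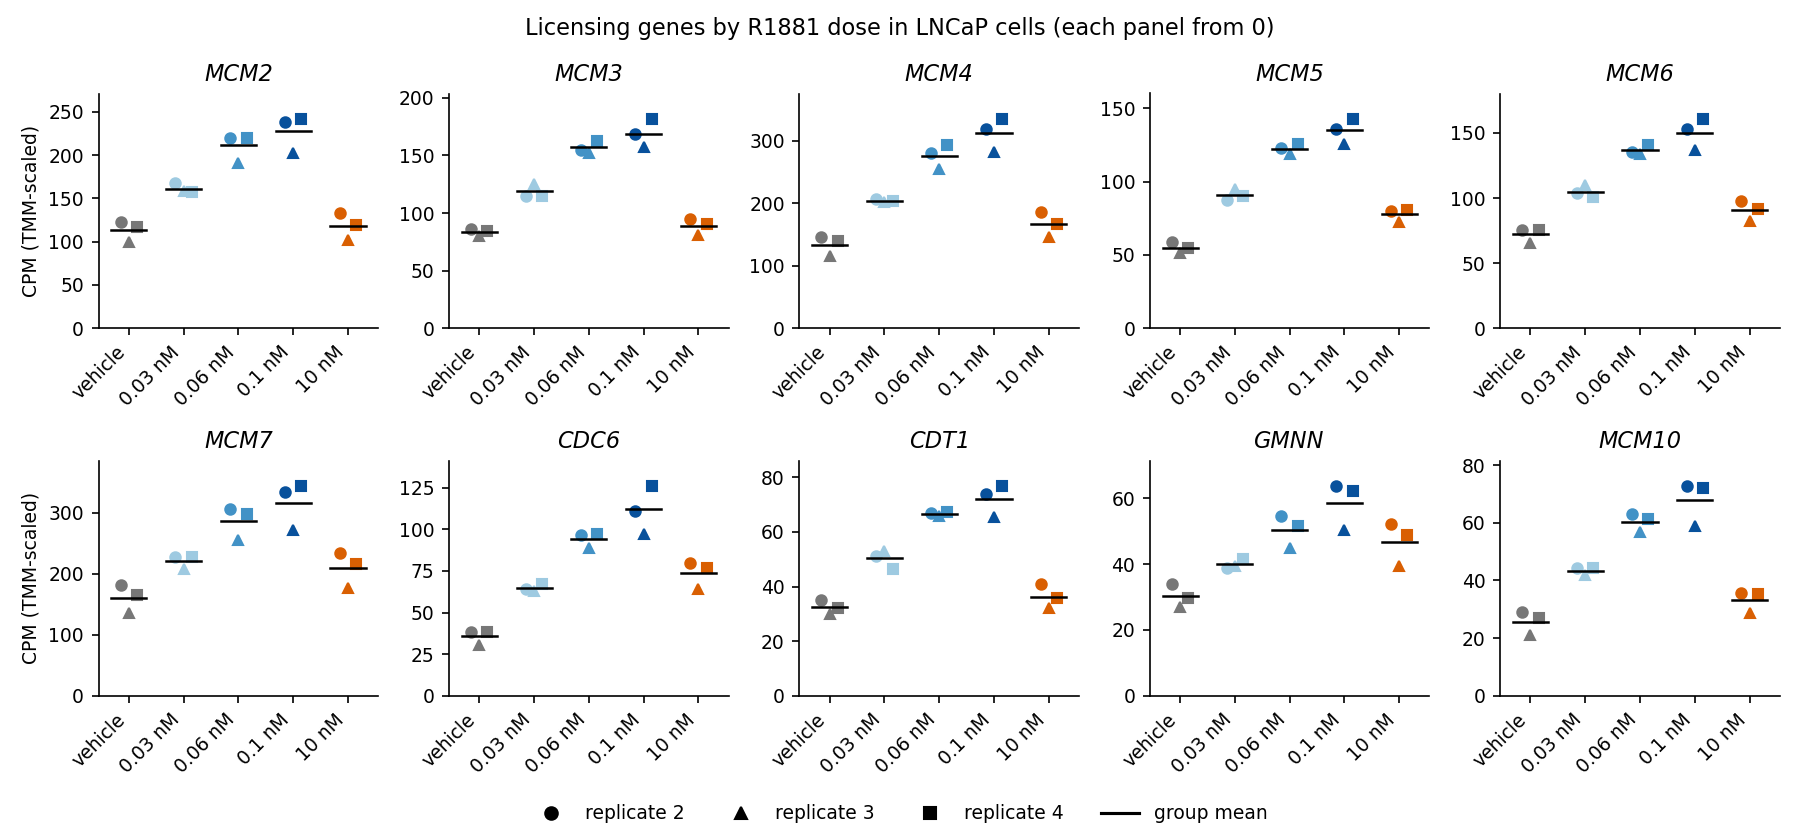
CPM (TMM-scaled) of the 10 genes in each library, by R1881 dose, with a line at each group's mean and a marker shape for each replicate number. In every panel the mean is highest at 0.1 nM, where the libraries of 8 genes overlap those of 0.06 nM, and is lower at 10 nM; replicate 3 is the lowest of its group in 44 of 50 cases.

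Between neighbouring low doses the step was uneven. From 0.03 to 0.06 nM, 8 of 10 members were higher at the larger dose, where 4.2% of all genes were, and MCM7 (adjusted p = 0.0547, log2 change 0.38) and GMNN (adjusted p = 0.0703, log2 change 0.34) were not called by edgeR. Same-numbered libraries pair in this comparison, and blocking on the replicate number called all 10, with adjusted p = 1.36e-05 for MCM7 and adjusted p = 0.000417 for GMNN by edgeR, where 9.73% of all genes were called higher. Over the alternatives the adjusted p of MCM7 ran between 2.67e-07 and 0.213 and that of GMNN between 0.000145 and 0.274. Between 0.06 and 0.1 nM none of the 10 was called by edgeR, where 1.36% of all genes were called in either direction; the log2 changes were all positive, 0.11 to 0.24, with adjusted p of 0.357 to 0.806. At an unadjusted p under 0.05 by edgeR, 2 of the 10 passed, MCM5 and CDC6, and 9.92% of all genes did. DESeq2 called none of the 10 either. Same-numbered libraries did not all pair in this comparison. Blocking on the replicate number called CDC6 and GMNN (edgeR adjusted p = 0.00956 and 0.033), where 3.23% of all genes were called higher. CDC6 was called with no low-count filter (edgeR adjusted p = 0.0206) and without the 5 libraries numbered 3 (0.0123; range 0.00956 to 0.901 over the alternatives), and MCM10 without those libraries (0.0355; range 0.0355 to 0.971), where 1.64% of all genes were called higher. The libraries of the 2 doses did not overlap for MCM5 and CDC6 alone, where 7.87% of all genes were higher without overlap.

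Among the helicase subunits, MCM2 was not called different from vehicle at the highest dose. Its libraries, in the order of replicates 2, 3 and 4, read 123, 99.7 and 117 CPM with vehicle, 168, 158 and 157 CPM at 0.03 nM, 220, 191 and 220 CPM at 0.06 nM, 238, 202 and 242 CPM at 0.1 nM and 133, 102 and 119 CPM at 10 nM. The 10 nM and vehicle libraries overlap, and both groups lie below every library of the 3 low doses. MCM2 (ENSG00000073111.14, chr3:127598223-127622436, plus strand) averaged 228 ± 22.3 CPM at 0.1 nM and 113 ± 12 CPM with vehicle (SD, n = 3 each), a log2 change of 1.01 ± 0.096 (SE; edgeR adjusted p = 1.81e-07). At 10 nM it averaged 118 ± 15.6 CPM, which is 4.08% of its rise from vehicle to 0.1 nM kept (-10.6% with library totals), and its log2 change against vehicle was 0.06 ± 0.095 (edgeR adjusted p = 0.634). MCM3 (ENSG00000112118.20, chr6:52264009-52284881, minus strand), which sits beside MCM5 in the ring, averaged 169 ± 12.4 CPM at 0.1 nM against 83.7 ± 3.15 CPM with vehicle. It kept 5.8% of its rise (-8.78% with library totals), with 88.6 ± 6.95 CPM at 10 nM and libraries of 81 to 94.6 CPM that overlap those of vehicle, 80.2 to 86.3 CPM.

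MCM5 stayed above vehicle at the highest dose. Its libraries read 58.7, 51.2 and 54.7 CPM with vehicle, 87.2, 94.9 and 90 CPM at 0.03 nM, 123, 119 and 126 CPM at 0.06 nM, 136, 126 and 143 CPM at 0.1 nM and 79.9, 72.4 and 80.6 CPM at 10 nM. Here no 10 nM library reaches down to the vehicle libraries. MCM5 (ENSG00000100297.16, chr22:35400063-35425430, plus strand) forms the gate of the ring together with MCM2, and its log2 change was 1.30 ± 0.063 at 0.1 nM (edgeR adjusted p = 3.85e-11) and 0.50 ± 0.063 at 10 nM (edgeR adjusted p = 2.01e-06), both against vehicle. It kept 28.3% of its rise (16.3% with library totals). MCM6 (ENSG00000076003.5, chr2:135839626-135876426, minus strand) kept 23.6% (8.58% with library totals), with 90.7 ± 7.74 CPM at 10 nM against 72.3 ± 5.6 CPM with vehicle and no overlap between these libraries. Whether MCM2 and MCM5 differ in what they kept was not tested.

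MCM7 and MCM4, neighbouring core subunits that carry much of the helicase activity together with MCM6, which sits beside MCM4, were the most abundant in CPM. MCM7 read 181, 135 and 165 CPM with vehicle, 227, 208 and 228 CPM at 0.03 nM, 306, 256 and 298 CPM at 0.06 nM, 334, 272 and 344 CPM at 0.1 nM and 234, 177 and 217 CPM at 10 nM. Replicate 3 is the lowest of every group, and the 10 nM and vehicle libraries overlap. MCM7 (ENSG00000166508.18, chr7:100092728-100101940, minus strand) was 0.38 ± 0.11 higher on the log2 scale at 10 nM than with vehicle (edgeR adjusted p = 0.00745), and the call was lost without vehicle replicate 3 (edgeR adjusted p = 0.06) or without 10 nM replicate 2 (edgeR adjusted p = 0.0579), with a range of 5.23e-09 to 0.262 over all alternatives. MCM4 (ENSG00000104738.18, chr8:47960185-47978160, plus strand) averaged 312 ± 27.9 CPM at 0.1 nM against 133 ± 15.9 CPM with vehicle, and 166 ± 20.2 CPM at 10 nM. Its log2 change of 0.32 ± 0.092 at 10 nM against vehicle (edgeR adjusted p = 0.00698) was likewise lost without vehicle replicate 3 (edgeR adjusted p = 0.0611) or 10 nM replicate 2 (edgeR adjusted p = 0.0653), with a range of 2.27e-06 to 0.406. At 0.03 nM against vehicle MCM7 had an edgeR adjusted p = 0.015, and it was not called without vehicle replicate 3 (0.0787) or 0.03 nM replicate 4 (0.0565), with a range of 2.23e-11 to 0.0787.

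**Figure D2:**
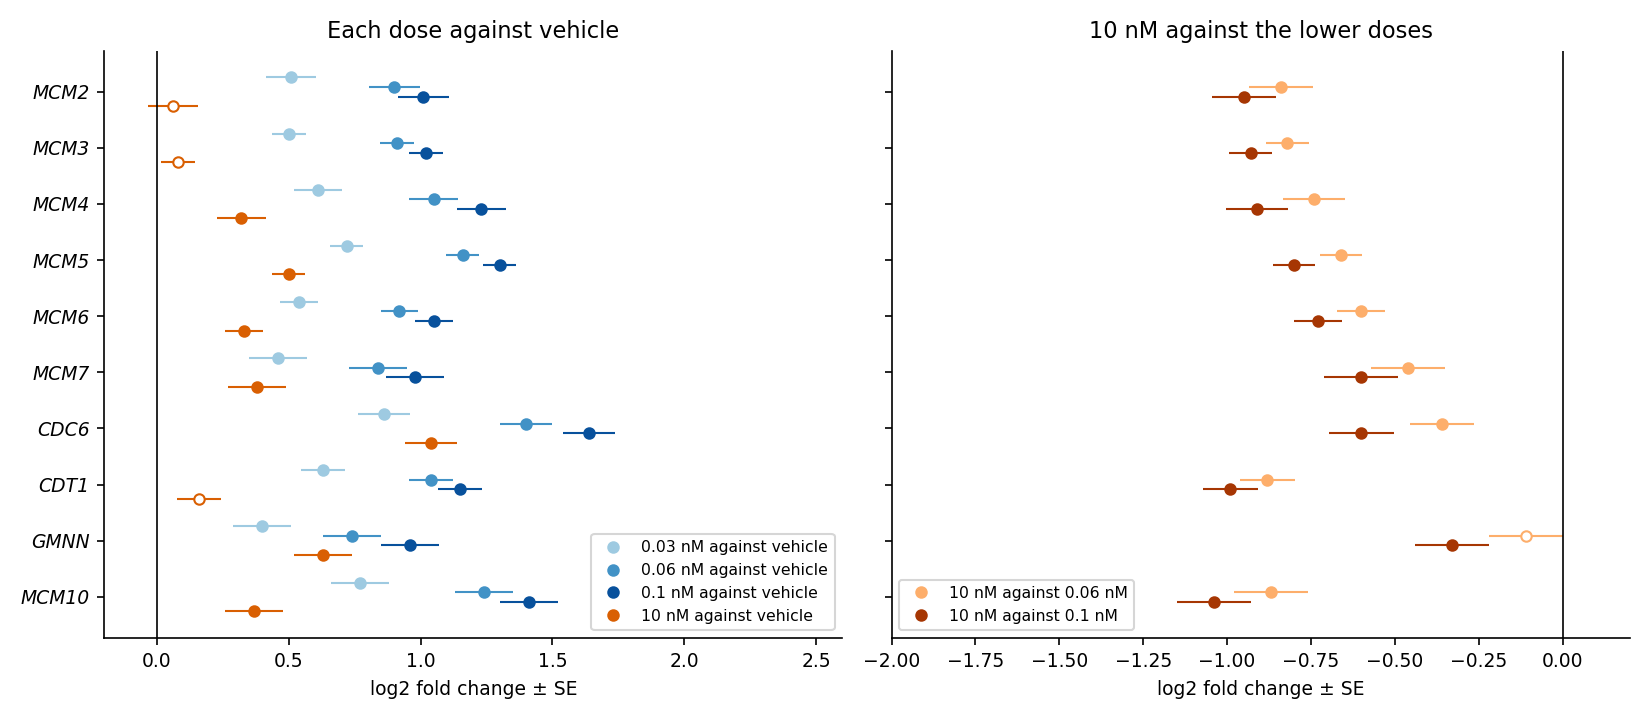
Log2 fold changes with standard errors from edgeR for each dose against vehicle (left) and for 10 nM against 0.06 and 0.1 nM (right); open symbols mark values not called at an adjusted p under 0.05. Open symbols are MCM2, MCM3 and CDT1 at 10 nM against vehicle and GMNN at 10 nM against 0.06 nM.

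Of the loaders, CDC6 stayed above vehicle at the highest dose and CDT1 was not called there. CDC6, an ATPase that joins the origin recognition complex to recruit the helicase, had the largest log2 change of the 10 genes at every dose against vehicle. Its libraries read 38.3, 30.6 and 38.2 CPM with vehicle, 64.3, 63.1 and 66.9 CPM at 0.03 nM, 96.7, 88.8 and 97.1 CPM at 0.06 nM, 111, 97.5 and 126 CPM at 0.1 nM and 79.9, 64.2 and 76.6 CPM at 10 nM. The 10 nM libraries fall beside those of 0.03 nM and all exceed those of vehicle. CDC6 (ENSG00000094804.12, chr17:40287633-40304657, plus strand) changed by 1.64 ± 0.099 at 0.1 nM (edgeR adjusted p = 7.29e-10) and by 1.04 ± 0.099 at 10 nM (edgeR adjusted p = 5.93e-08), log2 against vehicle, and kept 50.0% of its rise (39.1% with library totals). At 10 nM it was 0.60 ± 0.096 lower on the log2 scale than at 0.1 nM (edgeR adjusted p = 6.62e-05).

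CDT1, which brings the helicase ring to the origin and is destroyed in S phase, rose as the others did and was not called at 10 nM against vehicle. Its libraries read 35.1, 30.1 and 32.2 CPM with vehicle, 51.2, 53.2 and 46.4 CPM at 0.03 nM, 67, 65.8 and 67.3 CPM at 0.06 nM, 74, 65.5 and 76.8 CPM at 0.1 nM and 40.9, 32.3 and 35.7 CPM at 10 nM. Vehicle and 10 nM libraries overlap, and both lie below all libraries of the low doses. CDT1 (ENSG00000167513.9, chr16:88803213-88809258, plus strand) was 1.15 ± 0.083 higher at 0.1 nM than with vehicle (edgeR adjusted p = 5.69e-09) and changed by -0.99 ± 0.082 at 10 nM against 0.1 nM (edgeR adjusted p = 3.08e-08), both log2. Its change at 10 nM against vehicle was 0.16 ± 0.083 (edgeR adjusted p = 0.113). CDT1 was called higher there without 10 nM replicate 3 (edgeR adjusted p = 0.0324), without the 5 libraries numbered 3 (0.0426) and with the replicate block (0.0448). The range over the alternatives was 0.0324 to 0.654. The sign turned, without a call, when library totals replaced TMM scaling (log2 change -0.05).

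GMNN, like CDC6, stayed above vehicle at the highest dose. Its libraries read 33.8, 27.1 and 29.8 CPM with vehicle, 38.9, 39.5 and 41.5 CPM at 0.03 nM, 54.6, 45 and 51.7 CPM at 0.06 nM, 63.7, 50.4 and 62.1 CPM at 0.1 nM and 52.1, 39.5 and 48.7 CPM at 10 nM. The 10 nM libraries overlap those of 0.06 nM and of 0.1 nM and exceed all those of vehicle. GMNN (ENSG00000112312.10, chr6:24774931-24786099, plus strand) was 0.63 ± 0.11 higher at 10 nM than with vehicle on the log2 scale (edgeR adjusted p = 7.11e-05) and kept 58.0% of its rise (39.0% with library totals). Its change at 10 nM against 0.1 nM was -0.33 ± 0.11 (edgeR adjusted p = 0.0181), and the call was lost without 0.1 nM replicate 2 (0.0859), 0.1 nM replicate 4 (0.0707) or 10 nM replicate 3 (0.0869), with a range of 4.05e-05 to 0.0869. Against 0.06 nM its change at 10 nM was -0.11 ± 0.11 (edgeR adjusted p = 0.414). At 0.03 nM against vehicle it had the smallest change of the members, 0.40 ± 0.11 (edgeR adjusted p = 0.0258), which was not called without vehicle replicate 3 (0.12), vehicle replicate 4 (0.0866), 0.03 nM replicate 3 (0.0555) or 0.03 nM replicate 4 (0.0953), with a range of 1.33e-06 to 0.12.

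Set per length, the mRNA of CDT1 relative to that of its inhibitor was lowest at the highest dose. The ratio of CDT1 to GMNN, each as CPM per kilobase of its principal transcript, averaged 0.419 ± 0.0145 with vehicle, 0.491 ± 0.0479 at 0.03 nM, 0.518 ± 0.047 at 0.06 nM, 0.480 ± 0.0274 at 0.1 nM and 0.303 ± 0.0166 at 10 nM (SD, n = 3). The 10 nM libraries, at 0.306, 0.318 and 0.285, all lie below the vehicle libraries, at 0.404, 0.433 and 0.420. The ratio of CDC6 to GMNN instead averaged 0.310 ± 0.0227, 0.425 ± 0.00789, 0.492 ± 0.0268, 0.499 ± 0.0387 and 0.414 ± 0.0118 over the same doses, so that 10 nM stayed above vehicle. A two-sided exact permutation test of 3 libraries against 3 gave p = 0.1 for 10 nM against vehicle for either ratio, which is the smallest it can give. A ratio within a library is the same under every scaling of that library, and it describes mRNA, not the amounts of the proteins.

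**Figure D3:**
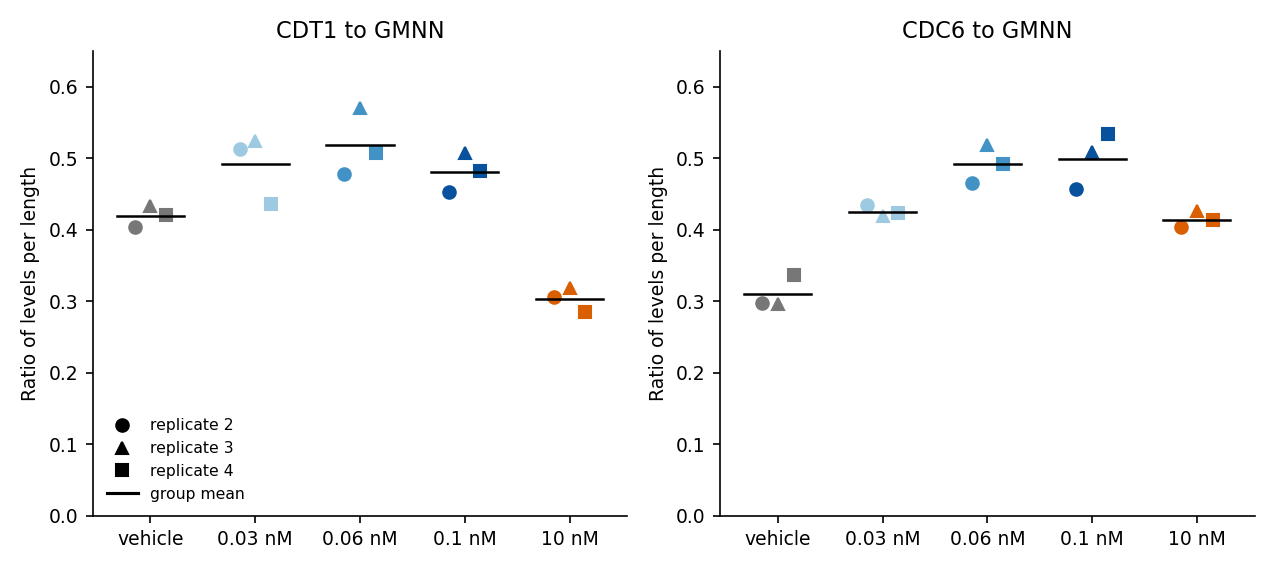
Ratio of CDT1 (left) and CDC6 (right) to GMNN in each library by R1881 dose, from levels per kilobase of principal transcript, with lines at the group means. CDT1 to GMNN is lowest at 10 nM, below vehicle, whereas CDC6 to GMNN at 10 nM stays above vehicle.

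MCM10, which binds the loaded helicase and is needed for it to unwind DNA, was lower in every 10 nM library than in any library of the low doses. Its libraries read 28.9, 20.9 and 26.9 CPM with vehicle, 44.2, 41.9 and 44.2 CPM at 0.03 nM, 62.9, 56.8 and 61.2 CPM at 0.06 nM, 72.7, 58.9 and 72.2 CPM at 0.1 nM and 35.6, 28.6 and 35.3 CPM at 10 nM. The 10 nM libraries overlap those of vehicle. MCM10 (ENSG00000065328.17, chr10:13161554-13211104, plus strand) was 1.41 ± 0.11 higher at 0.1 nM than with vehicle (edgeR adjusted p = 1.23e-08) and changed by -1.04 ± 0.11 at 10 nM against 0.1 nM (edgeR adjusted p = 4.21e-07), both log2. Its change at 10 nM against vehicle was 0.37 ± 0.11 (edgeR adjusted p = 0.00672), lost without vehicle replicate 3 (0.0586), with a range of 1.09e-06 to 0.268. It kept 18.0% of its rise (7.89% with library totals).

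At 0.03 nM the members had reached 34.1% (GMNN) to 44.9% (CDT1) of their difference between 0.1 nM and vehicle on the CPM scale. With library totals this ran from 36.2% to 47.3%, and from 26.9% to 38.5% with the libraries numbered 3 left out of the means. At 10 nM they kept 4.08% (MCM2) to 58.0% (GMNN) of it, with -10.6% (MCM2) to 39.1% (CDC6) from library totals and 5.03% (MCM2) to 59.7% (GMNN) without the libraries numbered 3. Differences between members in these shares were not tested. Without the 5 libraries numbered 3 the counts of members called were 10 at 0.03, 0.06 and 0.1 nM and 8 at 10 nM against vehicle, and 10 lower at 10 nM against 0.1 nM, where 5.99%, 16.9%, 22.3% and 28.3% of all genes were called higher and 20.3% lower. The members' medians were then 0.486 at 0.03 nM, 1.13 at 0.1 nM, 0.333 at 10 nM and -0.868 for 10 nM against 0.1 nM.

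Levels can be compared between genes only per length. With vehicle, MCM7 was highest at 54.3 ± 7.81 CPM per kilobase of principal transcript, followed by MCM4 (31.8 ± 3.81), MCM2 (31.3 ± 3.31), MCM3 (26.1 ± 0.98), GMNN (24.0 ± 2.68), MCM6 (19.3 ± 1.5), MCM5 (15.5 ± 1.06), CDT1 (10.0 ± 0.772), MCM10 (8.09 ± 1.32) and CDC6 (7.42 ± 0.921). Neighbours whose libraries overlap in this order are MCM4 and MCM2, MCM3 and GMNN, and MCM10 and CDC6. At 10 nM GMNN stood in place 3 at 37.1 ± 5.15, overlapping MCM4 at 39.6 ± 4.84 and MCM2 at 32.5 ± 4.32, and CDC6 at 15.3 ± 1.72 stood above CDT1 at 11.2 ± 1.34. The 6 subunits form one ring in equal number, yet their mRNA levels per length differed 3.48 ± 0.284 times between MCM7 and MCM5 with vehicle, 2.80 ± 0.192 times at 0.1 nM and 3.21 ± 0.289 times at 10 nM. Both the order and the spread between subunits depend on the length used. With merged exons MCM2 and MCM3 stood above MCM4 and GMNN kept place 6 at every dose, including 10 nM. MCM7 and MCM5 then averaged 36.6 and 7.48 CPM per kilobase with vehicle, further apart than with principal transcripts.

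**Figure D4:**
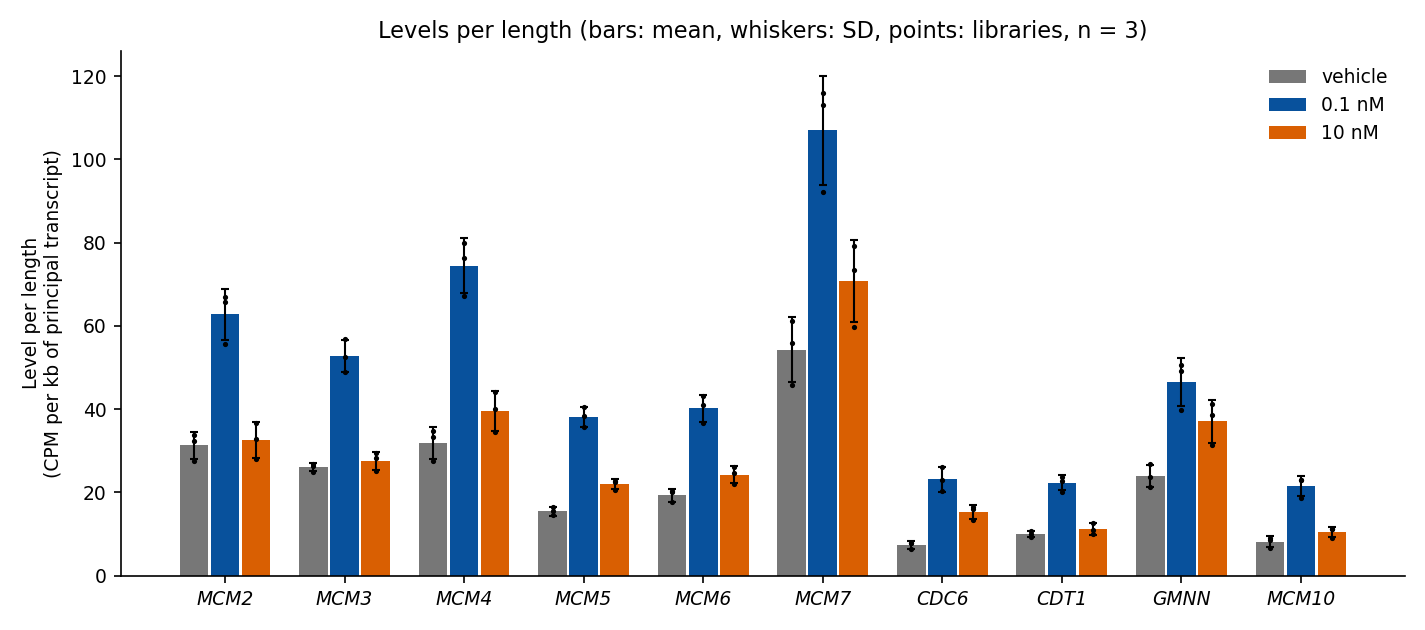
Mean level per length (CPM per kilobase of principal transcript) with vehicle, at 0.1 nM and at 10 nM; whiskers are the SD and points the 3 libraries. MCM7 is highest at all 3. At 10 nM the mean of GMNN lies above that of MCM2, with overlapping libraries, whereas with merged exons it lies below.

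Some members overlap other genes, and the strand setting of the authors' counting is not given in the sources used here. MCM2 shares 45 exonic bases with TPRA1 and 1113 with the antisense gene AC023593.1, both on the opposite strand. The antisense gene averaged 1.25 to 1.62 CPM over the 5 groups, and TPRA1 31.4 to 38.6 CPM. TPRA1 was called lower at 10 nM than with vehicle (log2 change -0.29, edgeR adjusted p = 0.000519) and at 0.06 nM (-0.26, 0.00203). Its part in the values of MCM2 was not tested. MCM7 shares 392 exonic bases with AP4M1 on the opposite strand, which averaged 25.3 to 26.1 CPM and was called in none of the 8 comparisons. MCM7 also hosts the microRNA genes MIR25, MIR93 and MIR106B in introns on its own strand; MIR25 averaged 0.306 to 0.607 CPM, and reads there cannot be told apart from unspliced MCM7.

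The proteins that act just before the members, the origin recognition complex, did not move as one. At 0.1 nM against vehicle, 5 of its 6 genes were higher and 1 lower, with a median log2 change of 0.845. Of all genes tested, 21.5% were called higher and 20.6% lower in that comparison, and 19.5% lower at 10 nM against 0.1 nM. These shares belong beside the counts of the main fit for every list that follows. ORC1, the subunit that binds CDC6 and is regulated through the cell cycle, averaged 38.1 CPM at 0.1 nM against 15 CPM with vehicle (log2 change 1.34 ± 0.11), and 17.3 CPM at 10 nM, a change of -1.14 ± 0.11 against 0.1 nM. ORC6 changed by 1.43 ± 0.12 and -0.91 ± 0.11 in the same 2 comparisons. ORC5 went the other way at the top dose: it averaged 28.5, 43.6, 60.1, 76.1 and 93.3 CPM from vehicle to 10 nM, was 0.29 ± 0.053 higher at 10 nM than at 0.1 nM on the log2 scale (edgeR adjusted p = 0.000203), and was higher there with library totals as well. ORC4 was lower by the test (-0.26 ± 0.064 at 0.1 nM), ORC2 rose by 0.21 ± 0.049 and ORC3 by 0.35 ± 0.079.

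Genes that activate the loaded helicase followed the members. All 17 tested were higher at 0.1 nM than with vehicle (median 1.04) and 15 of 17 were lower at 10 nM than at 0.1 nM (median -0.543). With library totals the first count was 16 and the second 15, where 17.1% of all genes were called higher and 32.6% lower. CLSPN, an adaptor of the replication checkpoint, changed by 1.45 ± 0.14 at 0.1 nM against vehicle, and CDC45 and GINS2, which complete the active helicase with the MCM ring, by 1.36 ± 0.12 and 1.32 ± 0.091. At the small end stood DBF4B (0.38 ± 0.14), TIMELESS (0.64 ± 0.084) and TIPIN (0.67 ± 0.06). The genes not called lower at 10 nM against 0.1 nM were DBF4, the activator of the CDC7 kinase that phosphorylates the MCM ring (28.2 against 30.2 CPM, log2 change -0.10 ± 0.11), and DBF4B (-0.19 ± 0.14).

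Regulators of licensing divided. At 0.1 nM against vehicle 8 of 14 were higher and 6 were not called (median 0.476); at 10 nM against 0.1 nM 7 were lower and 5 higher, where 20.6% of all genes were called higher. DTL, the substrate receptor that hands CDT1 to a ubiquitin ligase, changed by 1.56 ± 0.11 at 0.1 nM against vehicle and -0.93 ± 0.11 at 10 nM against 0.1 nM. FBXO5, an inhibitor of the anaphase-promoting complex, and the kinase CDK2 changed by 1.19 ± 0.11 and 1.18 ± 0.083 at 0.1 nM. The cullins CUL1 and CUL4B and the adaptor DDB1, parts of ubiquitin ligases that act on CDT1, had the log2 changes nearest to 0 at 0.1 nM against vehicle, with -0.01 ± 0.046 for CUL1, 0.03 ± 0.052 for CUL4B and -0.01 ± 0.05 for DDB1, none of them called. CUL4B, DDB1, SKP1, FZR1 and KMT5A were the 5 higher at 10 nM than at 0.1 nM. With library totals 2 of the list were higher and 8 lower, where 11.8% and 32.6% of all genes were.

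Other members of the MCM family did not share the pattern as a whole. MCM8, a helicase of meiotic and repair recombination, averaged 35.2 CPM at 0.1 nM against 15.5 CPM with vehicle (1.18 ± 0.11), whereas its partner MCM9 averaged 14.5 against 13.4 CPM (0.12 ± 0.076, not called). MCMBP, which forms a complex with the other MCM subunits in place of MCM2, changed by 0.74 ± 0.062 at 0.1 nM against vehicle and by -0.57 ± 0.062 at 10 nM against 0.1 nM. HROB, which recruits MCM8 and MCM9 to DNA, changed by 0.70 ± 0.18 at 0.1 nM. MCMDC2 (-0.01 ± 0.12) and MCM3AP (-0.03 ± 0.043) were not called at 0.1 nM, and MCM3AP was 0.37 ± 0.043 higher at 10 nM than at 0.1 nM.

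**Figure D5:**
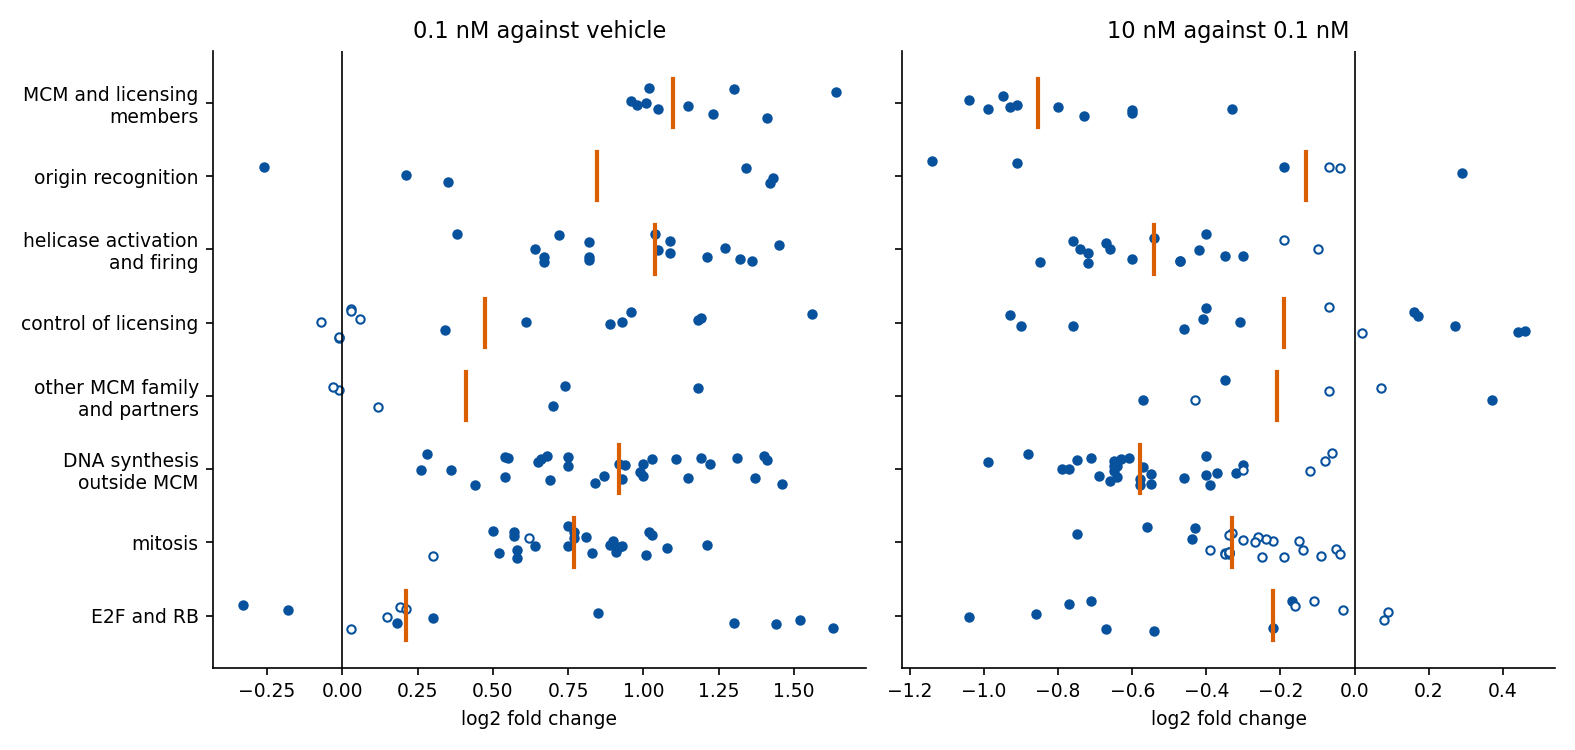
Log2 changes of the members and of 7 lists of related genes at 0.1 nM against vehicle (left) and at 10 nM against 0.1 nM (right); points are genes, open where not called, and vertical bars are medians. The members' medians are 1.10 and -0.855.

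Genes of DNA synthesis outside the MCM ring were higher at 0.1 nM than with vehicle in 31 of 31 cases (median 0.921) and lower at 10 nM than at 0.1 nM in 27 of 31 (median -0.585). RRM2, a subunit of ribonucleotide reductase, changed by 1.46 ± 0.13 at 0.1 nM against vehicle and by -0.30 ± 0.12 at 10 nM against 0.1 nM, the second not called; POLD2, RFC1 and RPA3 were also not called there. The histone chaperone ASF1B (1.41 ± 0.12) and the flap endonuclease FEN1 (1.40 ± 0.10) changed most after RRM2 at 0.1 nM, and POLD2 (0.26 ± 0.058), RPA1 (0.28 ± 0.057) and RPA3 (0.36 ± 0.098) least.

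Mitotic genes rose with the members at 0.1 nM, in 23 of 25 cases with a median of 0.773, and 3 of 25 were called at 0.03 nM, namely AURKB, NDC80 and ANLN, where 5.47% of all genes were called higher. At 0.03 nM 12 of 25 were called without the 5 libraries numbered 3, and 1 with library totals. Of all genes, 5.99% and 4.4% were called higher in these 2 settings. At 10 nM against 0.1 nM 4 of 25 were called lower (CDK1, AURKB, BUB1B and NDC80), with a median of -0.331. This count depends on the libraries and the scaling: 18 of 25 were called lower without the 5 libraries numbered 3 and 14 with library totals. Of all genes, 20.3% and 32.6% were then called lower. Among the named genes ANLN (1.21 ± 0.13), AURKB (1.08 ± 0.14) and NDC80 (1.03 ± 0.14) changed most at 0.1 nM, and ECT2 (0.50 ± 0.13) and PLK1 (0.52 ± 0.16) least of those called. CCNB1 (0.30 ± 0.14) and PRC1 (0.62 ± 0.26) were the 2 not called, PRC1 at 1.4 CPM at 0.1 nM.

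Of 13 genes for E2F factors and the retinoblastoma family, 7 were higher and 2 lower at 0.1 nM than with vehicle (median 0.212). Of all genes, 21.5% were called higher and 20.6% lower there. E2F7 and E2F8, which repress E2F targets, changed by 1.63 ± 0.14 and 1.52 ± 0.18, and the activator E2F1 by 1.44 ± 0.094, from the edgeR fit. At 10 nM against 0.1 nM 8 of the 13 were lower and 0 higher, with a median of -0.221. E2F4, E2F5, E2F6, RB1 and RBL2 were not called there. E2F1 averaged 60.0 CPM at 10 nM against 109 CPM at 0.1 nM, a log2 change of -0.86 ± 0.092. E2F3 (0.03 ± 0.059), RB1 (0.15 ± 0.06), E2F5 and E2F6 were not called at 0.1 nM, and TFDP2, a dimer partner of E2F factors, was lower (-0.18 ± 0.049), as was RBL2.

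The 5 genes most like the members' mean profile over the 15 libraries, by Pearson's r, were ORC6 (0.997), RAD54L (0.997), RFWD3 (0.995), EXO1 (0.995) and SKA3 (0.994). RAD54L, of homologous recombination, averaged 20.8, 33.3, 47.5, 54.0 and 29.7 CPM from vehicle to 10 nM, and EXO1, a DNA exonuclease, 12.3, 21.3, 29.1, 33.8 and 16.3 CPM. Among the members themselves r with that mean ran from 0.90 for GMNN to 0.997 for MCM4, the mean including each of them. The libraries share doses and replicate numbers, so these values are a description.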

How the data were processed

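Polyadenylated RNA from LNCaP cells was sequenced with a stranded kit, per the labels' protocols. The deposited table holds raw whole-number read counts per Ensembl gene, 1 column per library. Trimmomatic 0.39, STAR 2.7.8a and DESeq2 1.36.0 and the builds GRCh38 and hg38 are named in the submitters' processing notes; the read counter, annotation and strand setting are not given in the sources used here. The 15 columns of the VCaP table match no label and were not used.

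Groups came from the labels. The precision rests on 30666460 to 61199483 counts a library, and no 2 libraries of a group agreed within sampling noise. edgeR 4.0.16 (R 4.3.3) with TMM factors and filterByExpr fitted quasi-likelihood models to all 15 libraries. Tests were two-sided, Benjamini-Hochberg adjusted p under 0.05 over 18403 genes, for 8 comparisons. CPM use effective library sizes; lengths and positions are GENCODE 29 on GRCh38. Likeness used log2 CPM with a prior count of 2. Percent of rise kept is the 10 nM minus vehicle difference over that of 0.1 nM minus vehicle, from mean CPM.

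Alternatives were RLE size factors, library totals, DESeq2 1.42.0, no filter, a stricter filter (a mean count of 20 and 1 CPM in 3 libraries), a replicate block, only the libraries compared, each library left out, and the 5 libraries numbered 3 left out. Same-numbered libraries deviated together in every pair (r over 0.1) for 0.03 nM against vehicle (0.155 to 0.296), 0.1 nM against vehicle (0.151 to 0.287) and 0.06 against 0.03 nM (0.159 to 0.29). They were read as paired there, yet the reported values come from the fit without a block, except where the block is named. For 0.06 nM against vehicle the lowest pair had r = 0.099. The test was checked on simulated data with 200 changed genes. Named genes were all 10 members, every gene of related lists of up to 6 and otherwise the 3 largest and 3 smallest changes at 0.1 nM against vehicle, those outside a count where 5 or fewer, and the 5 most alike. DBF4, KMT5A, SKP1 and FZR1 complete such counts. The members and lists were chosen with earlier results of these data known.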

Additional observations from a re-analysis of the deposited data

How the results depend on the processing

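Every member kept the direction of its change in every comparison where it was called, under all 23 alternatives. The counts of members called at 0.06 nM and 0.1 nM against vehicle (10 each) and at 10 nM against 0.06 nM (9) were the same when each library was left out; the others ran over 8 to 10 (0.03 nM against vehicle), 6 to 10 (0.06 against 0.03 nM) and 9 to 10 (10 nM against 0.1 nM). Members called at 10 nM against vehicle numbered 3 with library totals and 4 to 8 with each library left out (4 without vehicle replicate 3), against 7. Members called at 0.1 against 0.06 nM numbered 0, with 1 under no low-count filter (CDC6), 2 with the replicate block (CDC6, GMNN) and 2 without the 5 libraries numbered 3 (CDC6, MCM10), and 0 with each library left out. Over all genes, 0.1 against 0.06 nM gave 251, with 387 by DESeq2, 501 with no filter, 899 with the replicate block, 407 without the libraries numbered 3 and 106 to 276 with each library left out (106 without 0.06 nM replicate 4, 118 without 0.1 nM replicate 4, 136 without 0.1 nM replicate 3, 140 without 0.06 nM replicate 2). At 0.03 nM against vehicle 1588 became 3195 with the replicate block, 1008 with only the libraries compared and 979 to 1650 with each library left out (979 without vehicle replicate 4). At 0.06 against 0.03 nM 1152 became 2926 with the replicate block, 1949 without the libraries numbered 3 and 434 to 1296 with each library left out (434 without 0.06 nM replicate 2, 535 without 0.03 nM replicate 4, 582 without 0.03 nM replicate 2, 674 without 0.06 nM replicate 4). The cause was not tested. Besides the 2 members named for 0.06 against 0.03 nM, the replicate block changed the call of CDT1 at 10 nM against vehicle (adjusted p = 0.0448 by edgeR; range 0.0324 to 0.654) and of CDC6 and GMNN at 0.1 against 0.06 nM. All 15 libraries correlated best with their own number. The column names also run through all the doses within each replicate number, but what that number stands for is not said. With library totals, genes called higher and lower were 12.7% and 38.3% at 10 nM against 0.06 nM (22.7% and 22.6% with TMM), and 11.8% and 32.6% at 10 nM against 0.1 nM (20.6% and 19.5% with TMM); the median of all genes shifted by -0.179 and -0.153. MCM2 lost its call at 0.06 against 0.03 nM with library totals and in 4 of the 15 settings that leave out 1 library, and MCM10 in 1. Shares of the rise kept at 10 nM were lower with library totals for all 10 members, an alternative chosen after seeing the data, as was leaving out the libraries numbered 3 for these shares. With 3 libraries a group, changes as small as those from 0.06 to 0.1 nM may pass undetected, and the missing call does not show that the doses act alike.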
